A study of Homo sapiens with 6 samples.

Results

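The 9 genes described here carry out or answer the steps of retinoid use, from the uptake of retinol to the receptors of retinoic acid. They were taken by symbol (STRA6, CYP26A1, RDH10, RDH11, DHRS3, CRABP2, RARA, RARG and RXRA), and all 9 were among the 23284 symbols listed in each library. Expression was measured by bulk RNA sequencing of HEC-1B, an established human endometrioid carcinoma line, in 6 libraries of 3 groups with 2 libraries each. In the high-potential accelerated group the label of the cells is high ALDH potential (ALDH is aldehyde dehydrogenase), and their transition to the ALDH1A1-high state was accelerated. Cells of the parental accelerated group lack the high-potential label and were accelerated too, and those of the parental high-to-low group, also without it, are labelled as passing from ALDH-high to low. The acceleration was judged by cell sorting, and all 6 libraries share the 1 line. No agent for the acceleration is named. It is not stated whether high-potential cells are 1 clone or whether replicates were separate cultures, so the p-values reflect library-to-library spread that could be purely technical. No high-potential high-to-low group was at hand.

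Retinol reaches the cell bound to a carrier protein and is taken up through the membrane receptor STRA6. Retinol dehydrogenases oxidise it reversibly to retinaldehyde, the ALDH1A enzymes oxidise retinaldehyde irreversibly to retinoic acid, and CYP26 enzymes break retinoic acid down. Retinoic acid binds RAR receptors that sit on DNA as heterodimers with RXR, and CYP26A1, DHRS3 and STRA6 are themselves known to be induced by retinoic acid in many cells. In the endometrium, retinoid synthesis and breakdown change with the menstrual cycle and with decidualization.

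CYP26A1 and STRA6 are shown by sequence because they are the members whose difference passed the test reported below. The windows are promoters from RefSeq (build GRCh38.p14, while the expression files were made on hg19), 250 bases before to 50 bases after an annotated start, on the strand of the gene. For CYP26A1 the window of 1 of its 2 starts is chr10:93073643-93073942 (plus strand), and for STRA6 the window of 1 of its 5 starts is chr15:74212210-74212509 (minus strand). Capitals mark hexamers bound by retinoid receptors, searched on both strands as the hexamer AGGTCA and its variants, which were AGTTCA, then with a changed first base GGGTCA, and with both changes GGTTCA.
CYP26A1: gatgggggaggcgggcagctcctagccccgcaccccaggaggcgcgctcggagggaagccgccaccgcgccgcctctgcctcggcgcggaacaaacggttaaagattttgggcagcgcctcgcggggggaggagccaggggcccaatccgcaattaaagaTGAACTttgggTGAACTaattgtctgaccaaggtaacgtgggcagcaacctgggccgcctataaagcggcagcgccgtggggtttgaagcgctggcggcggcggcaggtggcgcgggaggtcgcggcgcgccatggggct
STRA6: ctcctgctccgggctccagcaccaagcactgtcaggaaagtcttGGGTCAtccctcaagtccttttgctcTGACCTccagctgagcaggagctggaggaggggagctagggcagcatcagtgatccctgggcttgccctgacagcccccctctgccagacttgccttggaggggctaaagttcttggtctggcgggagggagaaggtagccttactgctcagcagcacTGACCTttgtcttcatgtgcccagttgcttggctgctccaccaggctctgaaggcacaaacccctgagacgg
The CYP26A1 window holds 2 such hexamers in the same direction with 5 bases between them, the spacing named DR5, on the opposite strand from 90 to 74 bases before the start. A pair at that spacing was found in 31 of 34943 RefSeq promoter windows (0.0887%). The STRA6 window holds 3 single hexamers and no pair spaced by 1, 2 or 5 bases. At least 1 hexamer was found in 38.6% of windows, and how often a window holds 3 was not counted. Of the 5 STRA6 windows 2 hold a hexamer, and the other CYP26A1 window holds none. For each gene the window shown is the one with the most hexamers. No other window of these genes or of RDH11, DHRS3, CRABP2, RARA, RARG and RXRA held a pair at these spacings, and RDH10 was not searched. These matches describe letters in a window and say nothing of binding.

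The libraries were close in depth. Depth relative to high-potential replicate 1, read from the shared ratio of low values, was 0.807 in the shallowest library (high-potential replicate 2) and 1.07 in the deepest (high-to-low replicate 1), and 14786 to 15386 genes were above 0. Values are FPKM, fragments per kilobase of transcript scaled to mapped fragments, which can be set side by side between genes. KRT18 (290.6 to 464.4 FPKM) and PAX8, a transcription factor of Müllerian epithelium (123.1 to 188.9 FPKM), marked the cells as epithelial, while CDH1, the E-cadherin gene, was at most 0.0868 FPKM. The summed FPKM of 7 epithelial markers was 643.8 and 559.7 in high-potential, 624.6 and 736.2 in parental accelerated and 666.3 and 673 in high-to-low libraries. Single markers went both ways without overlap, where 32.8% of all genes kept in the fit below did not overlap. Of 6 epithelial markers kept, 1 was called lower by limma between high-potential and parental libraries, beside 1.37% of all genes. KRT8 was 49.4 and 47.1 FPKM in high-potential against 90.6 to 107.7 FPKM in parental libraries, and EPCAM 3.49 and 2.16 against 4.43 to 10.6 FPKM. KRT7 was 11.6 and 13.7 FPKM in high-potential against 1.27 to 5.27 FPKM in parental libraries. The part of these markers in the results below was not tested. Of 15 markers of leukocytes, fibroblasts and endothelium none reached 1 FPKM. An exact 0 can be a failed estimate: of 31 genes that reached 20 FPKM in 4 or more libraries and had a 0 in another, 1 was protein-coding (SLPI, listed at 0 in parental accelerated replicate 2). Genes are therefore said to be listed at 0. In bulk RNA, fewer cells that express a gene and less RNA per cell cannot be told apart.

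STRA6, CYP26A1 and RDH10 were higher in both high-potential libraries than in all 4 parental ones, whether accelerated or high-to-low. In parental libraries STRA6 and CYP26A1 stayed below 1 FPKM, while RDH10 was still expressed at 11.02 to 43.2 FPKM. STRA6 and CYP26A1 passed the test and RDH10 did not, but STRA6 and CYP26A1 reached the filter of the fit, 1 FPKM in 2 libraries, through the high-potential libraries alone and so had to differ. Of the 155 genes kept in that way 36.8% were called, and the test does not set these genes apart from RDH10. RDH11, DHRS3, RARA, RARG and RXRA were expressed in every library and none passed, and CRABP2 was near 0 throughout. Parental accelerated replicate 2 carried ALDH1A1 at the high-potential level. In it STRA6 was listed at 0, CYP26A1 was 0.314 FPKM and RDH10 was at its lowest, 11.02 FPKM.

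**Figure D1:**
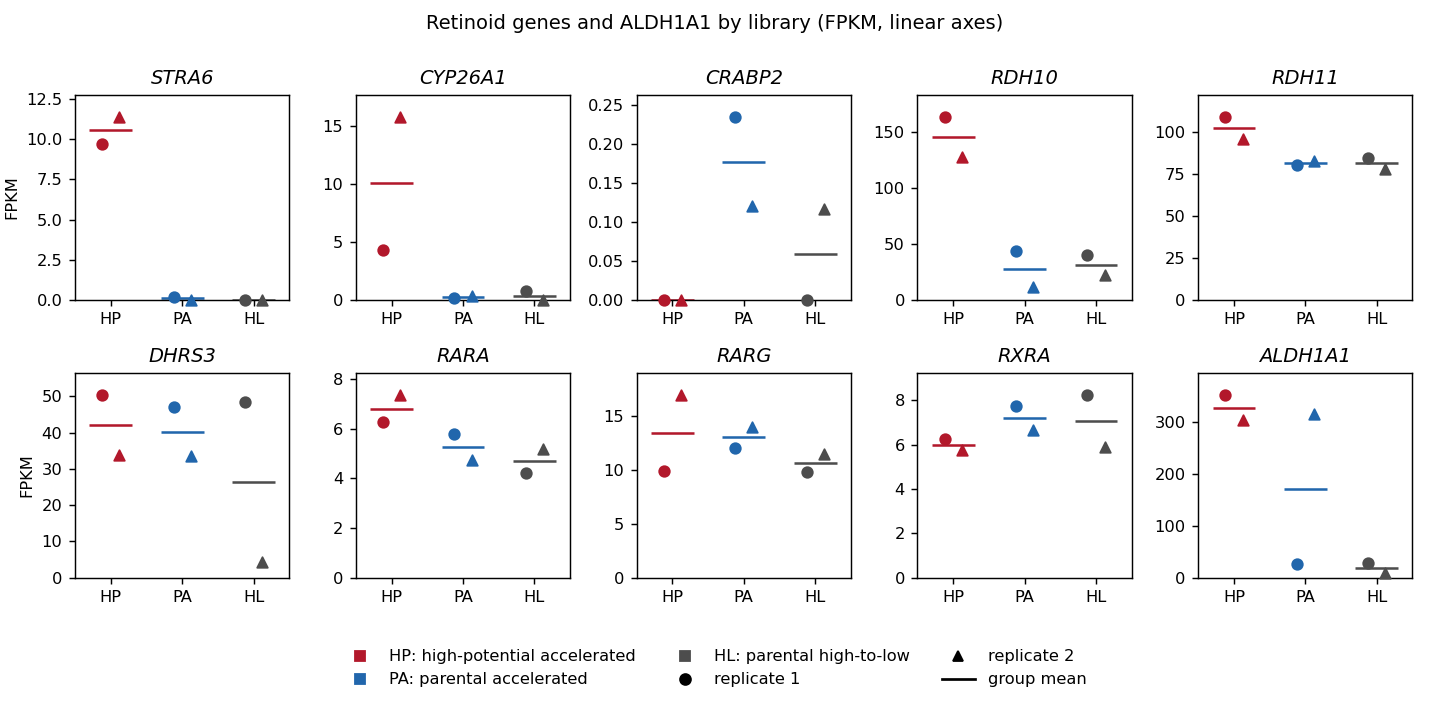
FPKM (linear vertical axes from 0) of the 9 retinoid genes and ALDH1A1 in high-potential accelerated (HP, red), parental accelerated (PA, blue) and parental high-to-low (HL, grey) libraries; circles are replicate 1, triangles replicate 2 and bars the mean of 2. STRA6, CYP26A1 and RDH10 stand highest in both HP libraries, while ALDH1A1 is also high in PA replicate 2 (316.9 FPKM).

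For uptake, STRA6 reached 9.74 and 11.4 FPKM in high-potential cells. It was 0.189 FPKM in parental accelerated replicate 1 and was listed at 0 in parental accelerated replicate 2 and in both high-to-low libraries. The groups did not overlap, and 3 of 4 parental libraries gave no signal. The mean was 10.6 ± 1.17 FPKM in high-potential cells (SD, n = 2). On the log2(FPKM + 1) scale used for all differences below, the high-potential libraries exceeded the 4 parental ones by 3.47 (SE 0.207, 95% interval 2.96 to 3.97, limma adjusted p = 0.00256 over 12135 genes). Because parental values are at or near 0, the size of this difference depends on the added 1 and gives no fold; with 0.1 added in its place it was 6.35. In terms of p, STRA6 ranked 9 of the genes tested. The call was lost without high-potential replicate 2 (limma adjusted p = 0.0521) and in no other fit that left out a single library. An exact two-sided permutation test gave p = 0.0667, the smallest that 2 against 4 libraries allow. STRA6 passed the filter through the high-potential libraries alone. That fixed the lack of overlap and favoured this p and the rank, so none of them is read as support. CCDC33, which overlaps STRA6 in RefSeq and which these unstranded reads cannot separate from it, was at most 0.0443 FPKM.

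For breakdown, CYP26A1, the hydroxylase that clears retinoic acid, reached 4.31 and 15.7 FPKM in high-potential cells. It was 0.153 and 0.314 FPKM in parental accelerated cells and 0.709 and 0 FPKM in high-to-low cells. The high-potential libraries lay above all parental ones but far from each other: their separation of 1.66 exceeded that of 99.0% of genes kept, where the median gene differed by 0.27. The difference from the 4 parental libraries was 2.89 (SE 0.488, 95% interval 1.71 to 4.07, limma adjusted p = 0.0460). That call rests on all 6 libraries, since leaving out any 1 of them ended it (limma adjusted p from 0.0613 to 0.246), and so did fitting without the filter on low values (adjusted p = 0.0814) or with 0.1 added (adjusted p = 0.0718). The exact permutation p was again the smallest possible, 0.0667, and is not read as support, since the filter fixed the lack of overlap here too. CYP26B1, which encodes a second retinoic acid hydroxylase, did not share the pattern: it was 1.52 and 0.704 FPKM in high-potential, 2.24 and 1.92 in parental accelerated and 2.37 and 1.26 FPKM in high-to-low libraries.

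RDH10, known in mouse embryos as the main enzyme that oxidises retinol to retinaldehyde, was the most abundant member in high-potential libraries, at 163.7 and 127.8 FPKM. It was 43.2 and 11.02 FPKM in parental accelerated and 40.4 and 22.1 FPKM in high-to-low libraries. The high-potential libraries averaged 145.8 ± 25.4 FPKM (SD, n = 2) and the 4 parental libraries 29.2 ± 15.3 FPKM (SD, n = 4), a ratio of 4.99. The difference was 2.45 (SE 0.530, 95% interval 1.17 to 3.73) and did not pass (limma adjusted p = 0.0720). It passed without parental accelerated replicate 1 (adjusted p = 0.0286), and over all alternatives the adjusted p lay between 0.0124 and 0.347. The parental accelerated libraries were 1.88 apart, more than 98.5% of genes kept. RefSeq places the antisense gene RDH10-AS1 over RDH10, and unstranded reads of the pair cannot be separated.

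RDH11, a retinaldehyde reductase of the endoplasmic reticulum, was even across libraries, at 108.9 and 95.6 FPKM in high-potential, 80.4 and 82.4 FPKM in parental accelerated and 84.3 and 78.1 FPKM in high-to-low libraries. The high-potential values lay above the other 4 by a factor of 1.26 in the means. The difference of 0.32 did not pass (SE 0.152, 95% interval -0.04 to 0.69, limma adjusted p = 0.299). Of 9 kept neighbours among the 5 listed genes on each side of RDH11 on chromosome 14, none was called in that comparison, with differences from -0.09 (TMEM229B) to 1.36 (ZFP36L1). PIGH (38.7 and 34.3 FPKM in high-potential cells, at most 29.8 in parental cells), ARG2 and ZFP36L1 (62.7 and 44.0 FPKM in high-potential cells, at most 30.5 in parental cells) also lay higher in both high-potential libraries.

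DHRS3, the reductase that turns retinaldehyde back into retinol and is known to act with RDH10, did not separate the groups. It was 50.4 and 33.8 FPKM in high-potential, 47.2 and 33.5 FPKM in parental accelerated, and 48.4 and 4.32 FPKM in high-to-low libraries. A single library was low, high-to-low replicate 2, and the gap of 3.21 between the high-to-low libraries exceeded that of 99.5% of genes kept. High-potential cells differed from parental cells by 0.72 (95% interval -1.26 to 2.70, limma adjusted p = 0.681), and by -0.09 without that library. RDH10 was 3.25 and 3.79 times DHRS3 in the high-potential libraries, 0.916 and 0.329 times in the parental accelerated libraries and 0.836 times in high-to-low replicate 1. In high-to-low replicate 2, the library with low DHRS3, the ratio was 5.12.

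CRABP2, the binding protein that delivers retinoic acid to its receptors, was listed at 0 in both high-potential libraries, at 0.234 and 0.120 FPKM in parental accelerated libraries and at 0 and 0.116 FPKM in high-to-low libraries. Scaled to depth these 3 positive values stand as 2.0, 1.0 and 1.0 times the smallest of them. CRABP2 missed the filter of 1 FPKM in 2 libraries. In the fit without a filter it differed by -0.16 between high-potential and parental libraries (limma adjusted p = 0.335). An exact permutation gave p = 0.333. CRABP1, its relative, was listed at 0 in all 6.

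The receptors were expressed at moderate and similar levels in every library. RARA was 6.26 and 7.36 FPKM in high-potential, 5.78 and 4.76 FPKM in parental accelerated and 4.21 and 5.17 FPKM in high-to-low libraries. High-potential libraries lay above the other 4, by 0.39 (95% interval -0.08 to 0.86, limma adjusted p = 0.333). RARG was 9.88 and 16.96 FPKM in high-potential, 12.03 and 14.0 FPKM in parental accelerated and 9.79 and 11.5 FPKM in high-to-low libraries. These overlapped, and the difference was 0.13 (95% interval -0.46 to 0.73, limma adjusted p = 0.814); it turned to -0.23 without high-potential replicate 2. RXRA, the heterodimer partner, was 6.24 and 5.77 FPKM in high-potential, 7.72 and 6.64 FPKM in parental accelerated and 8.24 and 5.91 FPKM in high-to-low libraries, a difference of -0.21 (95% interval -0.69 to 0.28, limma adjusted p = 0.624). As folds of FPKM + 1, these intervals run from 0.944 to 1.82 for RARA, 0.726 to 1.66 for RARG and 0.618 to 1.22 for RXRA.

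Among the RAR genes RARG made up 60.9 and 69.5% of the summed FPKM in high-potential libraries, 67.4 and 74.3% in parental accelerated libraries and 69.5 and 69.0% in high-to-low libraries. RARB, which retinoic acid induces in many epithelial cells, was at most 0.0990 FPKM in any library. RXRA made up 36.7 and 36.2% of summed RXR FPKM in high-potential libraries, and between 42.8 and 57.1% in parental libraries, the rest being RXRB. The highest of these shares was in high-to-low replicate 2, where RXRB was 4.45 FPKM against 7.83 to 11.01 FPKM elsewhere.

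**Figure D2:**
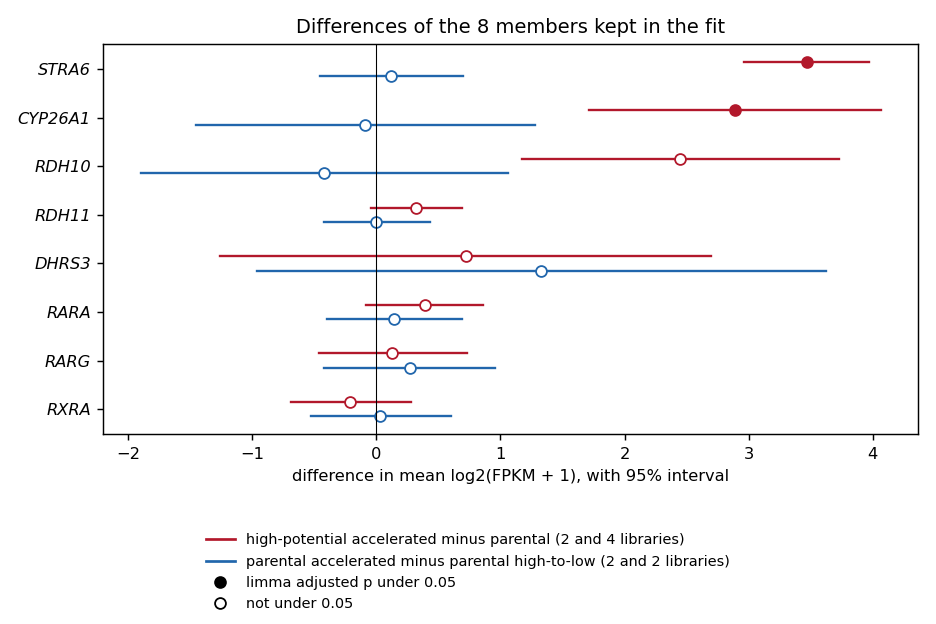
Difference in mean log2(FPKM + 1) with its 95% interval for the 8 members kept in the fit, for high-potential accelerated minus the 4 parental libraries (red) and parental accelerated minus parental high-to-low libraries (blue). Filled points (STRA6 and CYP26A1, red) passed a limma adjusted p of 0.05, and every blue interval crosses 0.

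Whether these genes go with the high-potential label or with the level of ALDH1A1 was described from the parental accelerated libraries. ALDH1A1 was 352.5 and 303.6 FPKM in high-potential libraries, 26.7 and 316.9 FPKM in parental accelerated libraries and 28.4 and 9.44 FPKM in high-to-low libraries. Parental accelerated replicate 2 thus matched the high-potential libraries in ALDH1A1, at a distance of 0.05 from their mean against 4.18 from the high-to-low mean. In that library STRA6 was listed at 0, CYP26A1 was 0.314 FPKM and RDH10, at 11.02 FPKM, was the lowest of all 6. Its RDH10 lay 3.60 from the high-potential mean and 1.36 from the high-to-low mean.

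Counted over the members, parental accelerated replicate 2 was nearer to the high-potential mean for 2 genes (DHRS3 and RARG) and nearer to the high-to-low mean for 7. Parental accelerated replicate 1, whose ALDH1A1 lay inside the high-to-low range, gave 3 and 6. The share of all genes nearer to either mean was not counted. Across all genes kept, parental accelerated replicate 2 correlated at 0.937 and 0.948 with the high-to-low libraries. With the high-potential libraries it correlated at 0.924 and 0.921. These counts therefore allow no reading about the members. For DHRS3 the high-to-low mean is set by 1 low library, and the high-potential and high-to-low means differ little for RARA (0.46), RARG (0.27), RXRA (-0.19) and CRABP2 (-0.08). Without high-potential replicate 2 the count nearer to high-potential cells was 1, and without either high-to-low library it was 3. In this library STRA6 and CYP26A1 were below 1 FPKM, as in every parental library. Both reached the filter through the high-potential libraries alone, so their parental values had to be that low. RDH10 was 11.02 FPKM, below the high-to-low libraries (40.4 and 22.1 FPKM). None of these genes was at its high-potential level there, although ALDH1A1 was. These values describe a single library, and whether the genes go with the cells or with ALDH1A1 was not tested. That library is also the only parental one whose label number begins with 18. Among parental cells the high ALDH1A1 level and that prefix therefore cannot be told apart.

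**Figure D3:**
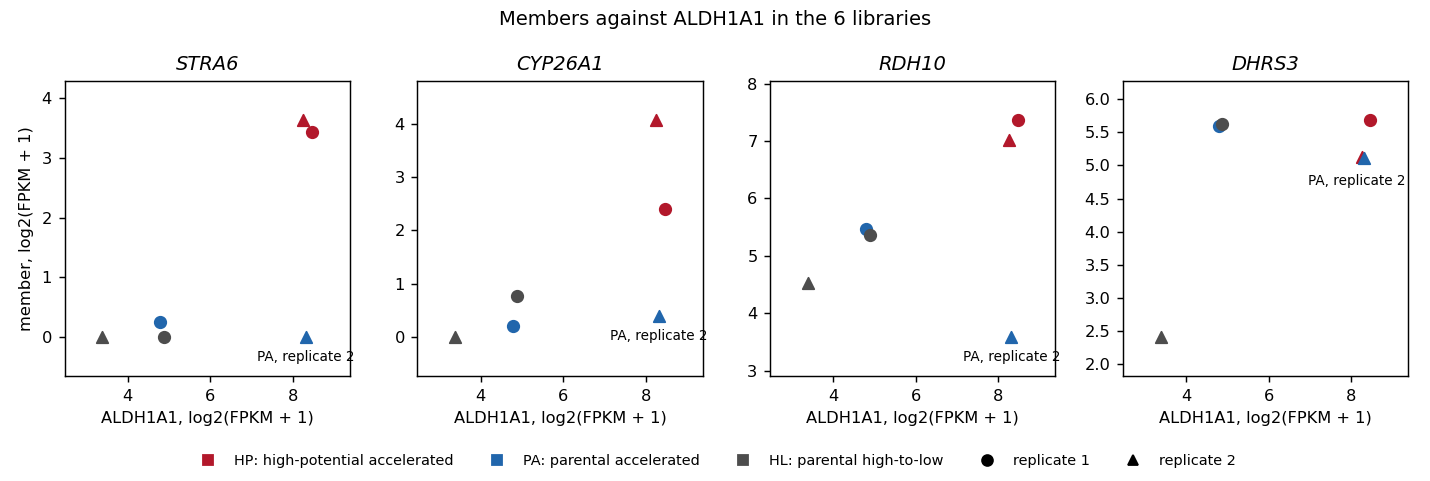
STRA6, CYP26A1, RDH10 and DHRS3 (vertical axes) against ALDH1A1 (horizontal axes), both as log2(FPKM + 1), in the 6 libraries; red is HP, blue PA and grey HL, circles are replicate 1 and triangles replicate 2. PA replicate 2 has ALDH1A1 at the HP level (316.9 FPKM) with STRA6 listed at 0, CYP26A1 at 0.314 and RDH10 at 11.02 FPKM.

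Among the 4 parental libraries the order of RDH10 was accelerated replicate 1, high-to-low replicate 1, high-to-low replicate 2 and accelerated replicate 2, so the accelerated libraries held both ends. Between the parental groups, which share the cells and differ in the transition label, no member was called by limma and none had an unadjusted p under 0.05. ALDH1A1 itself was not called there either, with a difference of 2.42 (95% interval -0.22 to 5.07). In accelerated replicate 1 it was 26.7 FPKM, inside the high-to-low range, so the labels do not separate the libraries by ALDH1A1 level. The share of all genes called there was 0.0165% (2 of 12135). The differences were 0.12 for STRA6 (95% interval -0.45 to 0.70), -0.09 for CYP26A1 (-1.45 to 1.28), -0.42 for RDH10 (-1.90 to 1.06) and 1.33 for DHRS3 (-0.96 to 3.62). These wide intervals leave room for changes of severalfold in CYP26A1, RDH10 and DHRS3. For RARA, RXRA and RDH11 the intervals lay within -0.53 and 0.69. RARG was 12.03 and 14.0 FPKM in parental accelerated against 9.79 and 11.5 FPKM in high-to-low libraries, the only kept member without overlap, where 24.1% of all genes did not overlap (11.4% higher and 12.7% lower).

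High-potential and parental accelerated cells share the accelerated label and differ in the cells. They also differ in ALDH1A1, which was 26.7 FPKM in parental accelerated replicate 1 and 316.9 FPKM in replicate 2. STRA6 was the only member called there, at 3.40 (SE 0.239, limma adjusted p = 0.00597), where 0.494% of all genes were called (0.288% higher and 0.206% lower). STRA6 and CYP26A1 could not overlap there, because of the filter, which also favoured the STRA6 call. Of the 155 genes kept through the high-potential libraries alone, 15.5% were called there, so that call is not read as support. Of the 6 members that reached 1 FPKM throughout, 3 (RDH10, RDH11 and RARA) were higher without overlap and 1 (RXRA) was lower, where 43.4% of all genes did not overlap (21.1% higher and 22.3% lower). CYP26A1 differed by 2.94 (95% interval 1.57 to 4.30, limma adjusted p = 0.105) and RDH10 by 2.66 (1.18 to 4.14, limma adjusted p = 0.137), each higher in 2 of 2 libraries. DHRS3 differed by 0.05 (-2.23 to 2.34) and RARG lay within -0.69 and 0.69. The high-potential libraries are the same as in the comparison with all parental cells, so these values are not independent of it. The STRA6 call was lost without high-potential replicate 2 (limma adjusted p = 0.0857), with 0.1 added (0.0580) or with a filter of 5 FPKM (0.0559).

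Between high-potential and all parental libraries 2.3% of the 12135 genes were called (0.931% higher and 1.37% lower), and 2 of 8 kept members. STRA6 and CYP26A1 passed the filter through the high-potential libraries alone, so they had to differ, and nothing is read from that count. Of 155 genes that passed in the same way, 57 were called (36.8%), and their median difference was 1.24. STRA6 exceeded 92.9% and CYP26A1 89.0% of them. Of the 6 members that reached 1 FPKM in every library, 0 were called by limma, 1 (RDH10) had an unadjusted p under 0.05 (as did 19.9% of all genes), and the median difference was 0.36 beside 0.00 over all genes. RDH10 had a difference greater in size than 99.1% of all genes, DHRS3 than 86.1%, and RARG than 27.1%. Of the same 6 members, libraries did not overlap for 3 (RDH10, RDH11 and RARA), all higher, where 32.8% of all genes did not overlap (15.3% higher and 17.5% lower). For STRA6 and CYP26A1 the filter fixed the lack of overlap.

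**Figure D4:**
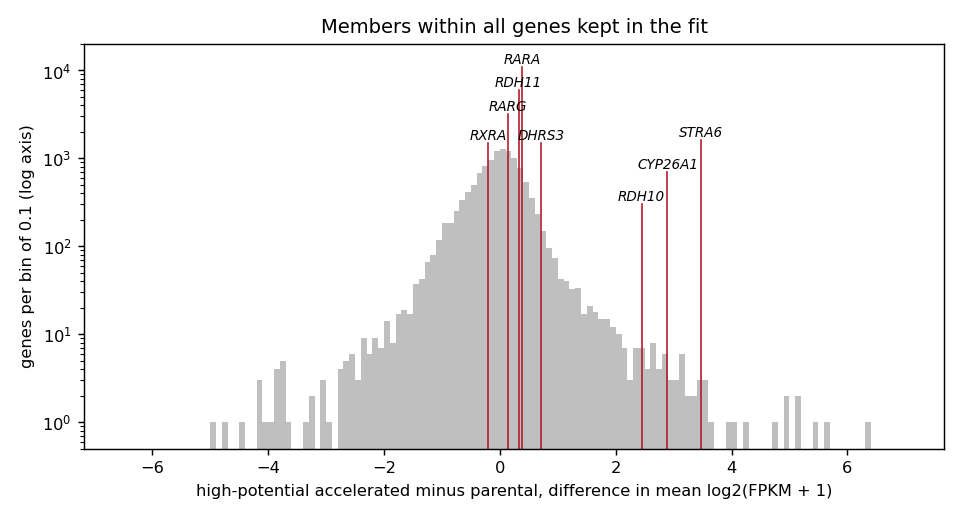
Histogram (log vertical axis) of the difference in mean log2(FPKM + 1) between high-potential accelerated and parental libraries over 12135 genes, with lines at the 8 kept members. STRA6 (3.47), CYP26A1 (2.89) and RDH10 (2.45) lie in the upper tail and the other 5 between -0.21 and 0.72.

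The numbers in the description labels begin with 17 or 18, and the labels do not say what they stand for. Replicate 2 of both accelerated groups begins with 18 and the other 4 libraries with 17, so both high-to-low libraries share 1 prefix. Within 18 there is 1 high-potential and 1 parental library, at 11.4 and 0 FPKM for STRA6, 15.7 and 0.314 FPKM for CYP26A1 and 127.8 and 11.02 FPKM for RDH10. Within 17 the high-potential library differed from the mean of the parental group means by 3.30 for STRA6, 2.11 for CYP26A1 and 2.16 for RDH10. Parental accelerated replicate 1 alone made up its group mean there and so weighed more than either high-to-low library. That fit assumed the lone high-potential library to vary like the rest. With the prefix as a term in the fit of all libraries the differences were 3.47, 2.66 and 2.73, and all 3 were called (limma adjusted p = 0.00355, 0.0369 and 0.0338).

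Outside the 9 members, 51 of 52 listed pathway genes were found and 25 were kept. None was called by limma in any of the 3 comparisons. Unadjusted p was under 0.05 for 7 of them between high-potential and parental cells, for 6 between the accelerated groups and for 0 between the parental groups, where the share of all genes was 19.9%, 14.3% and 0.972% in that order. Between high-potential and parental cells 18 were higher and 7 lower, with a median of 0.33 beside 0.00 over all genes. These genes include ALDH1A1, which was higher and had an unadjusted p under 0.05 in that comparison. Without ALDH1A1 17 were higher and 7 lower, with a median of 0.30. RBP7 is still in those counts and is among the 7 and the 6 above. It reached the filter through the high-potential libraries alone (1.02 and 1.51 FPKM, at most 0.653 FPKM in parental libraries). RBP7 thus had to be higher, and nothing is read from it. The 26 that were not kept stayed at or below 0.404 FPKM, and 14 were listed at 0 in every library. Among those were LRAT, which stores retinol as esters, the plasma carrier TTR, RXRG and the binding protein gene FABP5.

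The other enzymes that make retinoic acid were low. ALDH1A3 was 2.65 and 2.74 FPKM in high-potential libraries and 0.654 to 1.33 FPKM in the 4 parental libraries, without overlap (difference 0.94, SE 0.209, limma adjusted p = 0.0757). ALDH1A2 was at most 0.298 FPKM. BCMO1, which cleaves beta-carotene to retinaldehyde, had the opposite sign, at 8.97 and 2.94 FPKM in high-potential against 13.6 to 16.9 FPKM in parental libraries (-1.35, SE 0.366, limma adjusted p = 0.118). None of these passed.

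Of 12 known retinoic acid targets other than the members, 6 were kept, 4 of them higher and 2 lower in high-potential than in parental cells, with 0 called by limma and 0 with an unadjusted p under 0.05, beside 2.3% and 19.9% of all genes; so few genes allow no reading of these counts. TGM2, tissue transglutaminase, was 125.5 and 80.7 FPKM in high-potential, 62.5 and 33.4 FPKM in parental accelerated and 65.4 and 14.6 FPKM in high-to-low libraries (1.39, limma adjusted p = 0.262). NRIP1, a nuclear receptor corepressor, was 29.1 and 30.5 FPKM in high-potential against 15.1 to 27.6 FPKM in parental libraries (0.45, limma adjusted p = 0.274). RARRES3 had the opposite sign, at 13.4 and 6.27 FPKM in high-potential against 6.10 to 26.3 FPKM in parental libraries (-0.77, limma adjusted p = 0.509). LRAT, HOXB1 and CDX1 were listed at 0 in every library.

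Genes whose profile over the 6 libraries was most like that of a member were ranked by the root mean square difference of centred log2(FPKM + 1) values among 11268 protein-coding genes. Nearest to STRA6 were BMP5 (0.242), SULF2 (0.243), IL32 (0.293), TNF (0.329) and METRNL (0.357). BMP5, a secreted BMP ligand, was 14.2 and 9.88 FPKM in high-potential libraries and at most 0.0509 FPKM in parental ones. Nearest to CYP26A1 were WNT10A (0.231), KLK10 (0.256), FSTL3 (0.329), TNF (0.338) and KAL1 (0.405). WNT10A, a Wnt ligand, was 4.95 and 14.5 FPKM in high-potential libraries, against at most 0.195 FPKM in parental ones. The ranking used these same libraries, so the gap between its high-potential replicates follows from how WNT10A was chosen. Nearest to RDH10 were MEGF6 (0.344), EEF1A2 (0.355), ARHGEF16 (0.367), CDH6 (0.382) and CILP (0.425), of which CDH6 was 13.7 and 14.0 FPKM in high-potential, 5.49 and 1.37 FPKM in parental accelerated and 3.09 and 1.59 FPKM in high-to-low libraries. These are likenesses over 6 libraries that share their groups, with no test.

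Of the 5 listed genes on each side of STRA6 on chromosome 15, 3 were kept and none was called between high-potential and parental cells. UBL7 differed by 0.07, PML by -0.13 and ARID3B by 0.69. The others, CYP11A1 and CCDC33 among them, stayed at or below 0.120 FPKM in every library, so STRA6 alone in that stretch was expressed in high-potential and near 0 in parental cells.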

How the data were processed

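RNA of 6 HEC-1B libraries was extracted with a miRNeasy kit, made into cDNA with SMART-Seq v4 and into libraries with a Nextera kit, per the labels' protocols. The authors deposited 1 FPKM value per gene symbol and library. The submitters' processing notes name TopHat2 2.0.13, Cuffnorm 2.2.1 and hg19; neither the annotation nor the scaling of libraries is stated in the sources used here. No count model was fitted to FPKM. Relative depth came from genes under 0.3 FPKM whose values in 2 libraries share 1 ratio within 3%. Total fragments are unknown, so no counting interval is given.

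The fit kept the 12135 genes that reached 1 FPKM in 2 or more libraries. log2(FPKM + 1) values were fitted in limma 3.58.1 (R 4.3.3) with a variance trend, 3 groups and 3 residual degrees of freedom. There were 3 comparisons: high-potential accelerated against both parental groups, against parental accelerated, and parental accelerated against parental high-to-low. Calls are two-sided, with p adjusted by Benjamini-Hochberg over all kept genes and a threshold of 0.05; differences on this scale understate changes of low genes. In simulated data for the first comparison (12135 genes, 5 sets) the step recovered 35.6% of genes changed by 1, 93.2% by 2 and 99.2% by 3, and 51 of 868 calls fell on unchanged genes. Only genes with a mean log2(FPKM + 1) above 2 were changed, with normal noise of the spread that the fit itself estimated. STRA6 and CYP26A1 have lower means, so these rates do not describe them.

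The members and lists were chosen with earlier results of these data known. Named genes are the members, ALDH1A1, per comparison the 4 other kept pathway genes of greatest difference and any called, the 5 nearest profiles to STRA6, CYP26A1 and RDH10, and neighbours of STRA6 and RDH11; other genes (lists, markers) serve as examples chosen after their values were seen. Another 16 settings were tried, and 2 more were chosen after seeing the data (small RNA genes left out, and libraries with label prefix 17).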

Additional observations from a re-analysis of the deposited data

How the results depend on the processing

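Of the choices tried, those that moved a count by over 1.5 times or turned a sign are given here; the cause was not tested. Against all parental libraries, the 279 calls became 164 with a pseudocount of 0.1, 168 with a filter of 5 FPKM, 1346 with a replicate block, 425 without small RNA genes, 3 within label prefix 17, and 14 to 200 without 1 library (14 without high-potential replicate 2, 27 without its replicate 1, 46 and 49 without high-to-low replicates 1 and 2, 92 without parental accelerated replicate 1). The 2 members called became 1 with a pseudocount of 0.1, without a filter or with the 5 FPKM filter, 0 within prefix 17, and 0 to 2 without 1 library. Between the accelerated groups 60 calls became 31 (pseudocount 0.1), 38 (no filter), 27 (5 FPKM), 546 (replicate block), 105 (prefix term), 39 (those groups alone), 11 (prefix 17) and 14 to 38 without 1 library. The 1 member called became 0 with a pseudocount of 0.1, the 5 FPKM filter or prefix 17, 3 with the replicate block, and 0 to 1 without 1 library. Between the parental groups 2 calls became 4 (pseudocount 0.1), 7 (prefix term, or those groups alone), 0 (small RNA genes left out), 13 (prefix 17) and 4 to 7 without 1 library. The members nearer to high-potential cells in parental accelerated replicate 2 numbered 2, and 1 to 3 without 1 library.

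Signs turned only for uncalled members. Against all parental libraries RARG was -0.18 within prefix 17 and -0.23 to 0.50 without 1 library, and DHRS3 -0.09 to 1.52. Between the accelerated groups RARG was 0.06 with quantile normalization, 0.01 with median ratio scaling and -0.36 to 0.36 without 1 library, and DHRS3 -0.23 to 0.33. Between the parental groups CYP26A1 was 0.19 with a pseudocount of 0.1 and 0.02 with quantile normalization, RDH10 0.13 with the prefix term and 0.52 within prefix 17, and RDH11 -0.01 within prefix 17. Without 1 library, the ranges there were 0.00 to 0.25 for STRA6, -0.47 to 0.30 for CYP26A1, -1.36 to 0.52 for RDH10, -0.05 to 0.06 for RDH11, -0.28 to 2.94 for DHRS3 and -0.18 to 0.24 for RXRA. No label calls the replicate numbers a pairing; deviations of same-numbered libraries correlated at 0.158 to 0.281 across genes, and only 2 numbers exist per comparison. With the replicate block RDH10 also passed against all parental libraries (limma adjusted p = 0.0124), and CYP26A1 and RDH10 between the accelerated groups (0.0484 and 0.0259). Depth limits statements on CRABP2, whose values are 0 or small multiples of the lowest positive one.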
